A study of Mus musculus with 41 samples.

Results

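H3K18la and H3K27me3 were compared in mouse embryonic stem cells grown in serum and LIF (mESC-ser). Each peak of one mark was placed by whether it shared at least 1 bp with a peak of the other, and overlapping peaks were joined into regions. This gave 2471 regions with both marks, 16424 with H3K18la only and 21750 with H3K27me3 only, of 40645 regions in all. The cells were the E14 line, a mouse embryonic stem cell line, labelled as control and processed as whole cells by CUT&Tag, in which antibody-bound transposase cuts and tags the chromatin around a mark. Each mark was profiled in 2 samples, which the authors combined before calling peaks, so each mark has 1 peak list and no replicate error. Peaks of H3K4me3 (2 samples) and H3K27ac (1 sample) from the same cells were set beside the classes and took no part in making them. They were not independent of H3K18la, which was met by 57.9% of H3K4me3 peaks and 75.1% of H3K27ac peaks. The comparison cells were E14 cells in 2i medium (mESC-2i) and cells or tissue of C57BL/6 mice, all labelled as control and processed as nuclei except the stem cells: gastrocnemius muscle (GAS), primary myoblasts (MB), myotubes (MT), bone marrow-derived macrophages (BMDM) and macrophages from muscle after ischemia (PIM). The labels give no ages for the mice.

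H3K18la is a lactate-derived acylation of histone H3 that is found at active promoters and enhancers. H3K27me3 is written by Polycomb repressive complex 2 and covers silenced developmental genes, often over CpG islands (CGIs). Stem cells are known for bivalent promoters, where H3K27me3 occurs with H3K4me3, a mark of active promoters, at genes that are held back until differentiation. A region under both peaks in a population of cells can come from the same nucleosomes, from different alleles or from different cells, and peak lists cannot tell these apart.

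Promoter sequences illustrate the classes. They were taken from RefSeq (GRCm38.p6) and run from 250 bases before to 50 after a transcription start site (TSS), 5′ to 3′, with each CpG in capitals. In the first pair H3K18la alone covered the whole stretch. Zfp42, which encodes the pluripotency marker Rex1, starts on the minus strand (chr8:43306960-43307259) with 11 CpGs in the stretch. The glycolytic enzyme gene Gapdh also lies on the minus strand (chr6:125165724-125166023) and has 12.
Zfp42: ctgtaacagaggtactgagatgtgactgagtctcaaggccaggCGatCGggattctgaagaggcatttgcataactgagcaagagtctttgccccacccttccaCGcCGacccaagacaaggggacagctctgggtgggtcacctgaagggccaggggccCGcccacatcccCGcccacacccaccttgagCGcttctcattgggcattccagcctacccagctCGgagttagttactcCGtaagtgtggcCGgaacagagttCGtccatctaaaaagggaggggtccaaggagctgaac
Gapdh: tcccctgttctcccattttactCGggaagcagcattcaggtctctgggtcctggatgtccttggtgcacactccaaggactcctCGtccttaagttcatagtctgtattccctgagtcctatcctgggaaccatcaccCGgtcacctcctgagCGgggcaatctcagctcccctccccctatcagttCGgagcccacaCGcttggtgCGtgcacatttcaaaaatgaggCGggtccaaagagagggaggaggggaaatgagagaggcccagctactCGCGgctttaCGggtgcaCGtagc
In the next 4 both marks covered all 300 bases. They are the promoters of Cdx2, a trophectoderm and posterior regulator (minus strand, chr5:147307200-147307499, 18 CpGs), the hindbrain gene Hoxb1 (plus strand, chr11:96365508-96365807, 10 CpGs), the BMP target Id3 (plus strand, chr4:136143572-136143871, 19 CpGs) and the BMP antagonist gene Chrd (plus strand, chr16:20732877-20733176, 34 CpGs).
Cdx2: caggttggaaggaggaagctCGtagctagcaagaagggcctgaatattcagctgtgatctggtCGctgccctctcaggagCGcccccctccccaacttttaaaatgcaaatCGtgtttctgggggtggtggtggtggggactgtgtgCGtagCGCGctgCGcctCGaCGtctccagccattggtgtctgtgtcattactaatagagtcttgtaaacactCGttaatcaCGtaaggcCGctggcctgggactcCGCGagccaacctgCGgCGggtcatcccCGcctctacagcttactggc
Hoxb1: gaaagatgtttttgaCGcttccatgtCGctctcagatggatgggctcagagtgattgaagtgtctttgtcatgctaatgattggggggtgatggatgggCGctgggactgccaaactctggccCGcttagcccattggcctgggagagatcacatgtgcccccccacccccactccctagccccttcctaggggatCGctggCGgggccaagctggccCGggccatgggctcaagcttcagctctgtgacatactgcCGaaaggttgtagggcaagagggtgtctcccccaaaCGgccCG
Id3: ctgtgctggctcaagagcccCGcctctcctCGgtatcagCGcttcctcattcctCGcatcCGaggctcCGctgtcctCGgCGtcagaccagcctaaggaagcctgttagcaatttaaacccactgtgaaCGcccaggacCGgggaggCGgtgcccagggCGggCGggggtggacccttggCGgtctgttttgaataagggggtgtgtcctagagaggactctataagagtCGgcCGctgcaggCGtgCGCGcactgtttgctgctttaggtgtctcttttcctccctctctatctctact
Chrd: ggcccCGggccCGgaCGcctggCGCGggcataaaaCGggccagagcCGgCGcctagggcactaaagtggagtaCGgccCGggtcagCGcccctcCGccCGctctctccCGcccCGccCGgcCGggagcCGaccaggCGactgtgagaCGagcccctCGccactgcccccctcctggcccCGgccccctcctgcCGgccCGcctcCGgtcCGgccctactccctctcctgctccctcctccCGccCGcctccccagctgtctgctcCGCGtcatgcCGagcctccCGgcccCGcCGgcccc
In the last pair H3K27me3 alone covered the stretch. Hoxb4, a trunk patterning gene, lies on the plus strand (chr11:96318017-96318316, 14 CpGs), and so does the neural gene Sox1 (chr8:12395269-12395568, 37 CpGs).
Hoxb4: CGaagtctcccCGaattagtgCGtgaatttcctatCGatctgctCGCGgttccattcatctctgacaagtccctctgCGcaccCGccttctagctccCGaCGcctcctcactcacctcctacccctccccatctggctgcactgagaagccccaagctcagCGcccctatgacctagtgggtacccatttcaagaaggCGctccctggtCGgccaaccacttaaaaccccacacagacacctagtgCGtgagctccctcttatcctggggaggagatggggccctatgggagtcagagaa
Sox1: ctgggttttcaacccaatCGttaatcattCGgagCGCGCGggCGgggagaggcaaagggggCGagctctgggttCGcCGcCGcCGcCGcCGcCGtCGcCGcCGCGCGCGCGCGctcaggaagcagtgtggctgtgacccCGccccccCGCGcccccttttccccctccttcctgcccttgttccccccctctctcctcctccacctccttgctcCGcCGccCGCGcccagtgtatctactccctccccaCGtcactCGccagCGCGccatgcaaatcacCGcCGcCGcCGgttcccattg
Over the same stretch at the outermost TSS of every protein-coding gene, the median was 17 CpGs (quartiles 8 and 26) for genes with both marks in the promoter, 18 (9 and 26) with H3K18la only, 12 (5 and 23) with H3K27me3 only and 5 (2 and 18) with neither mark. The 2 H3K18la classes thus had close medians, and all 3 marked classes lay above the unmarked genes.

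The labels were checked against marker genes first. The promoters of all 5 stem cell markers (Pou5f1, Nanog, Sox2, Zfp42 and Dppa4) carried H3K18la without H3K27me3. Of 4 fibroblast markers, Col1a1 and Col1a2 carried H3K27me3 only, and Thy1 and Pdgfra carried both marks. None of 8 markers of macrophages, muscle and fat carried H3K18la, and neither did the liver gene Alb, whereas the endothelial gene Pecam1 carried H3K18la only. The lists held 19057 H3K18la peaks over 82.4 Mb and 24436 H3K27me3 peaks over 86.6 Mb on chromosomes 1 to 19 and X. The median width was 3183 bp for H3K18la and 2296 bp for H3K27me3. The fragments covering the peaks summed to 1604 Mb for H3K18la and 1887 Mb for H3K27me3. The lists give no read numbers, and those that the authors report per sample were not used, so these sums stand in for depth. The strength of peaks was ranked only among peaks of the same mark and cells. Percentages carry 95% Wilson intervals, which cover counting error only.

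A minority of peaks of either mark met the other. Of the H3K18la peaks 2633 overlapped H3K27me3 (13.8%, interval 13.3 to 14.3%), and of the H3K27me3 peaks 2686 overlapped H3K18la (10.99%, 10.6 to 11.4%). Among the 5000 peaks of each mark with the largest total signal, 6.12% of H3K18la peaks overlapped H3K27me3 and 6.22% of H3K27me3 peaks overlapped H3K18la. Both lists were cut for these shares. Against the full list of the other mark, the top decile by maximum coverage overlapped in 9.87% of H3K18la peaks and 20.1% of H3K27me3 peaks. With all peaks, H3K18la lay between the other active marks in this respect: H3K27me3 was met by 26.4% of H3K4me3 peaks (25.6 to 27.3%) and by 6.71% of H3K27ac peaks (6.33 to 7.11%). Of the regions with both marks, 2180 joined a single peak of each. Chromosomes ranged from 9.81% of H3K18la peaks on chromosome 16 to 17.8% on chromosome 8 and 19.1% on chromosome 11. Without chromosomes 8 and 11, 12.8% of H3K18la peaks overlapped H3K27me3.

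The shared bases depended on where in the genome they were counted. In the whole genome 7.24 Mb lay under both marks, 2.67 times the 2.71 Mb that would be shared if each set were spread evenly. At CGI promoters (the windows of 2000 bp to each side of a TSS that held an island) H3K18la covered 28.4% and H3K27me3 27.04% of the bases. They shared 3.19 Mb there, 0.690 times the 4.63 Mb of an even spread (0.395 times with the 5000 strongest peaks of each mark). The ratio was 1.42 at the other promoters and 2.396 outside promoters. H3K4me3 and H3K27me3 had a ratio of 6.43 in the genome and 0.865 at CGI promoters, and H3K27ac and H3K27me3 had 1.51 and 0.256. At CGI promoters H3K18la thus stood between the other 2 marks. Gene counts went the same way: of 6050 genes with a CGI promoter and H3K18la, 26.1% also had H3K27me3 (25.0 to 27.2%), against 39.4% of the genes with a CGI promoter but no H3K18la. At promoters without an island the shares were 18.8% (16.7 to 21.1%) and 17.95%. No test was possible on these ratios, since each mark has 1 set.

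The 2848 stretches under both marks had a median length of 2222 bp (quartiles 1550 and 3135 bp, range 2 to 18029 bp), and 4504 bp with the 5000 strongest peaks of each mark. Of them 31 (1.09%, 0.768 to 1.54%) were shorter than 150 bp, about the length of DNA around a nucleosome, and 110 were shorter than 500 bp. The widths of the peaks bound these lengths, and no expected length was computed. Of the overlapping H3K18la peaks, 861 (32.7%, 30.9 to 34.5%) lay wholly under H3K27me3 and 1942 (73.8%) were covered over at least 50% of their length. Of the overlapping H3K27me3 peaks, 714 (26.6%, 24.9 to 28.3%) lay wholly under H3K18la and 1768 (65.8%) were covered over at least 50%.

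**Figure D1:**
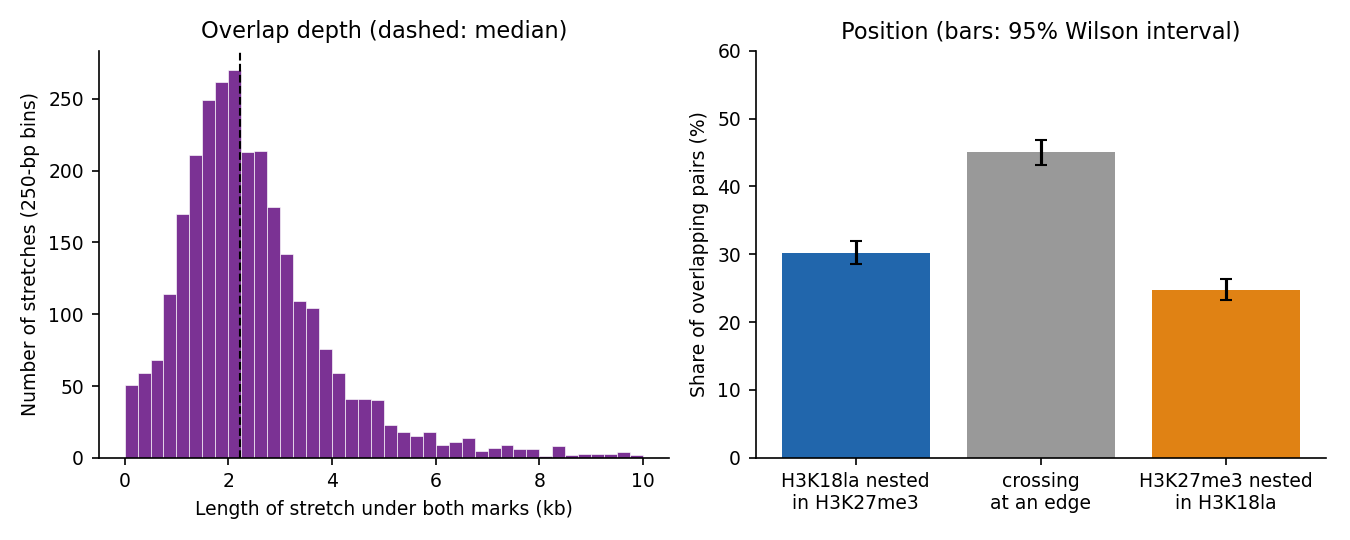
Left, histogram of the length in kb of the stretches under both marks, in bins of 250 bp (13 stretches of 10000 bp or more are not drawn), with the median of 2222 bp dashed. Right, share of the 2848 overlapping pairs of peaks by position, with 95% Wilson intervals: crossing pairs were the most frequent (45.01%), followed by H3K18la nested in H3K27me3 (30.2%) and H3K27me3 nested in H3K18la (24.8%).

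Position was divided among nested and crossing pairs. Of 2848 pairs, 1282 crossed at an edge (45.01%, 43.2 to 46.8%), 861 had the H3K18la peak nested in the H3K27me3 peak (30.2%, 28.6 to 31.9%) and 705 had the H3K27me3 peak nested in the H3K18la peak (24.8%, 23.2 to 26.4%). Nested H3K18la peaks were of ordinary width (median 2818 bp) inside broad H3K27me3 domains (median 8327 bp). Nested H3K27me3 peaks had a median of 1998 bp inside H3K18la peaks of 5177 bp. The stretches of the first kind met H3K27ac in 23.7% of pairs (21.0 to 26.6%) and those of the second kind in 41.6% (37.98 to 45.2%). For H3K4me3 the order was the other way round, with 59.1% (55.8 to 62.4%) and 48.7% (44.98 to 52.3%).

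The points of highest coverage also fell under the other mark. In 2028 of 2633 overlapping H3K18la peaks (77.0%, 75.4 to 78.6%) the maximum lay under H3K27me3, where 61.1% of the bases of these peaks did. In 2147 of 2686 overlapping H3K27me3 peaks (79.9%, 78.4 to 81.4%) the maximum lay under H3K18la, where 47.7% of the bases did. Both maxima lay within the shared stretch in 1575 pairs (55.3%), and the median distance between the maxima of a pair was 1265 bp (quartiles 100 and 3157 bp). Abutting peaks were rare. Of the 16424 H3K18la peaks without H3K27me3, 0 touched an H3K27me3 peak at a gap of 0 bp, 42 had it within 100 bp (0.256%) and 1179 within 5000 bp (7.18%). Their median gap was 63.4 kb.

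**Figure D2:**
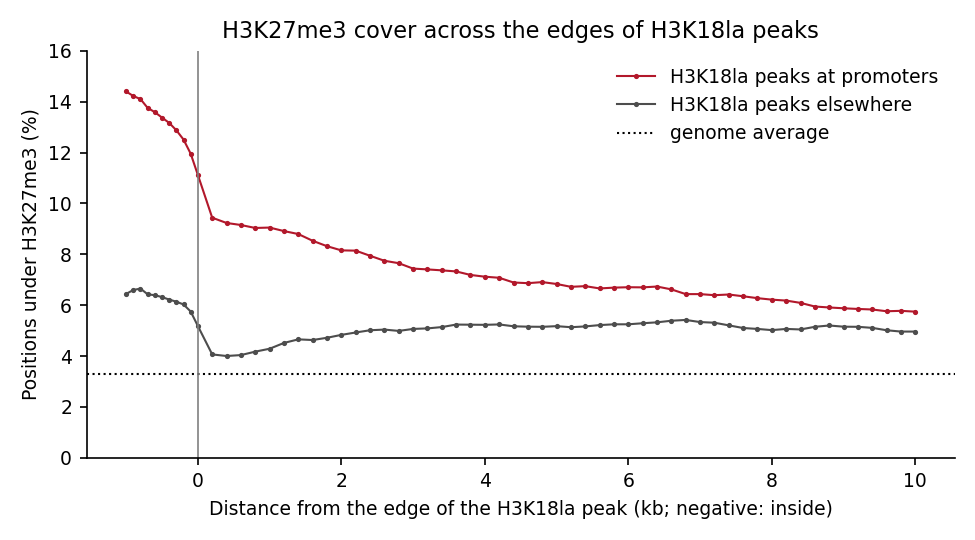
Share of positions under an H3K27me3 peak (y axis, %) against the distance in kb from the edges of H3K18la peaks (x axis, negative inside the peak), for 9425 H3K18la peaks at promoters and 9632 elsewhere; the dotted line is the genome average of 3.29%. Inside promoter peaks the share reached 14.4%, and it fell to 5.75% at 10 kb outside. Positions inside rest on fewer peaks, at 1000 bp on 8230 at promoters and 7659 elsewhere, since narrow peaks drop out.

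Across the edges of promoter H3K18la peaks, H3K27me3 cover was 14.4% at 1000 bp inside the peak, 11.1% at the edge, 9.05% at 1000 bp outside and 5.75% at 10000 bp outside. At H3K18la peaks elsewhere it was 6.44% inside, 5.18% at the edge, 4.29% at 1000 bp outside and 4.96% at 10000 bp. Both curves were thus above the genome average of 3.29% over all distances drawn. Outside promoter peaks the share declined over the 10 kb, and elsewhere it was lower next to the peak than at 10 kb. The values at 1000 bp inside rest on 8230 promoter peaks and 7659 others, since narrow peaks drop out, and those outside on all peaks. The part of this change of peaks was not separated.

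Regions with both marks were richest in promoters, islands and H3K4me3. A promoter lay in 71.7% of them (69.9 to 73.4%), in 46.6% of H3K18la-only regions (45.9 to 47.4%) and in 34.5% of H3K27me3-only regions (33.9 to 35.2%). An island lay in 62.5% (60.6 to 64.4%), 24.4% (23.7 to 25.0%) and 16.3% (15.8 to 16.8%). H3K4me3, which took no part in the classes, was called in 57.7% of regions with both marks (55.7 to 59.6%), 29.2% of H3K18la-only (28.6 to 29.9%) and 6.87% of H3K27me3-only regions (6.54 to 7.22%). H3K27ac had another order: 39.0% (37.1 to 40.9%), 50.3% (49.6 to 51.1%) and 0.786% (0.677 to 0.913%). Regions with both marks were wider (median 5888 bp against 3161 and 2216 bp), which raises every such share. Among the 5000 peaks of each mark with the largest total signal, the promoter share was 77.1% with both marks and 73.5% with H3K27me3 only, a difference of 3.63 points (interval −1.62 to 8.23), so that this contrast did not exceed counting error among the strongest peaks. For H3K27ac the difference between these classes was 38.2 points with all peaks and 64.1 points among the strongest. Of all H3K27ac peaks 75.1% lay over H3K18la, which regions with both marks carry and H3K27me3-only regions do not.

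**Figure D3:**
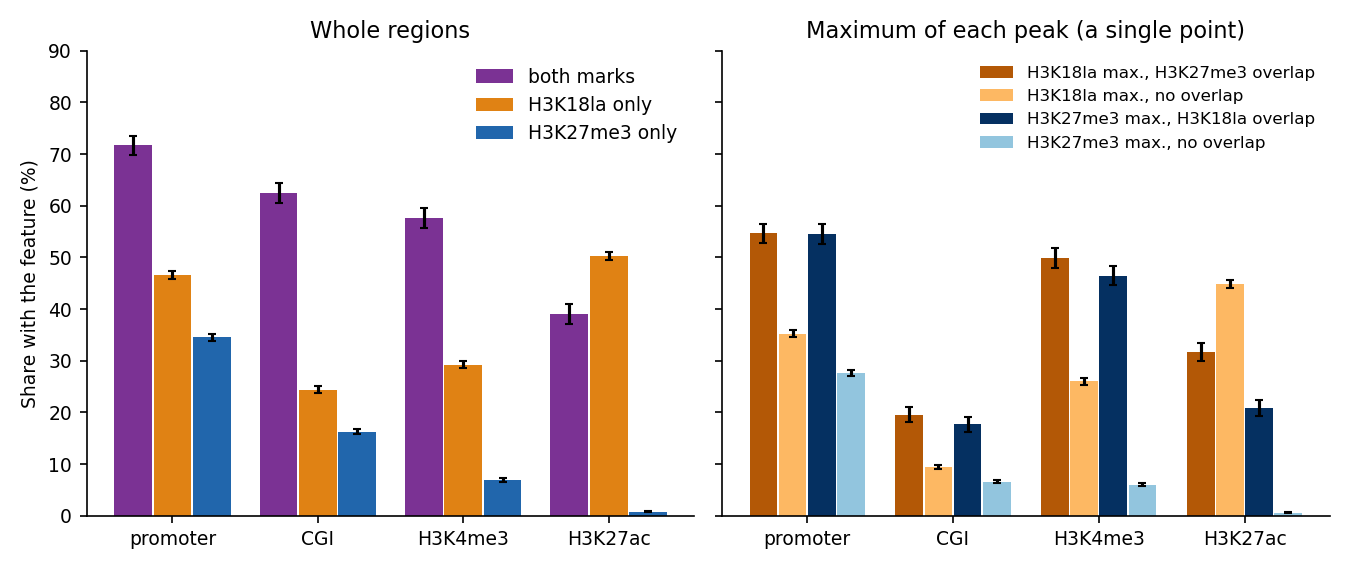
Share (y axis, %) of regions (left) or of peak maxima (right) with a promoter, a CGI, H3K4me3 or H3K27ac, by class, with 95% Wilson intervals. With both marks, the promoter, CGI and H3K4me3 shares were the highest in both panels, while the H3K27ac share was highest for H3K18la without H3K27me3.

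At the maximum of each peak, a single position, the same contrasts were seen, although whether a peak met the other mark was still decided over its whole width. The maximum of an H3K18la peak lay in a promoter for 54.7% of peaks with H3K27me3 and 35.2% without, a difference of 19.4 points (17.4 to 21.4). It lay under H3K4me3 for 49.9% and 26.0% (difference 23.9 points, 21.9 to 25.97) and under H3K27ac for 31.6% and 44.9% (−13.3 points, −15.2 to −11.3). The maximum of an H3K27me3 peak lay under H3K4me3 for 46.5% of peaks with H3K18la and 5.97% without (40.5 points, 38.6 to 42.4). For H3K27ac these shares were 20.8% and 0.524% (20.3 points, 18.8 to 21.9).

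H3K4me3 and H3K27ac divided the regions with both marks. Of 2471 regions, 763 had both of these marks (30.9%, 29.1 to 32.7%), 662 had H3K4me3 without H3K27ac (26.8%, 25.1 to 28.6%), 200 had H3K27ac without H3K4me3 (8.09%, 7.08 to 9.24%) and 846 had neither (34.2%, 32.4 to 36.1%). H3K4me3 without H3K27ac was found in 2.11% of H3K18la-only regions (1.90 to 2.34%) and in 6.23% of H3K27me3-only regions (5.92 to 6.56%).

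The strength of the peaks went in opposite directions for the 2 marks. H3K18la peaks over H3K27me3 had a lower maximum coverage (median 54, quartiles 39 and 79) than those without (65, 46 and 97) at a like width (medians 3299 and 3161 bp). From the lowest to the highest decile of H3K18la peaks by maximum coverage, the share over H3K27me3 fell from 22.4% (20.6 to 24.3%) to 9.87% (8.61 to 11.3%). H3K27me3 peaks over H3K18la were wider (median 3602 against 2216 bp) and had a higher maximum (median 64 against 42). From the lowest to the highest decile by maximum, their share over H3K18la rose from 5.32% (4.50 to 6.28%) to 20.1% (18.6 to 21.8%). At CGI promoters the H3K27me3 order turned, with a median maximum of 80 for peaks with H3K18la and 106 without. The H3K18la order was the same there (53 and 62). A broad peak offers more positions for an overlap, and the part of width in these shares was not separated.

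At the level of genes, 1808 of 21755 protein-coding genes (8.31%) had both marks in the promoter window, 5464 (25.1%) had H3K18la only and 4075 (18.7%) had H3K27me3 only. With the 5000 strongest peaks of each mark these numbers were 322, 2351 and 3009. The same peak can serve neighbouring genes. In 1485 of the 1808 genes (82.1%) a stretch under both marks lay in the window itself, and in 911 (50.4%) the 300 bases at the outermost TSS met both marks. An island was present at 87.3% of promoters with both marks, 81.8% with H3K18la only and 66.5% with H3K27me3 only. H3K4me3 was called at 80.4% (78.5 to 82.1%), 84.97% (84.0 to 85.9%) and 32.6% (31.2 to 34.1%), and H3K27ac at 51.0% (48.7 to 53.3%), 86.7% (85.8 to 87.6%) and 5.50% (4.84 to 6.24%). Promoters with both marks were thus close to the H3K18la-only promoters in H3K4me3 and lay between the classes in H3K27ac. Among them, 842 had H3K4me3 and H3K27ac, and their median H3K18la maximum stood at the 58.8th percentile of the H3K18la list. The 611 with H3K4me3 but no H3K27ac stood at the 30.6th percentile for H3K18la and the 84.7th for H3K27me3.

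**Figure D4:**
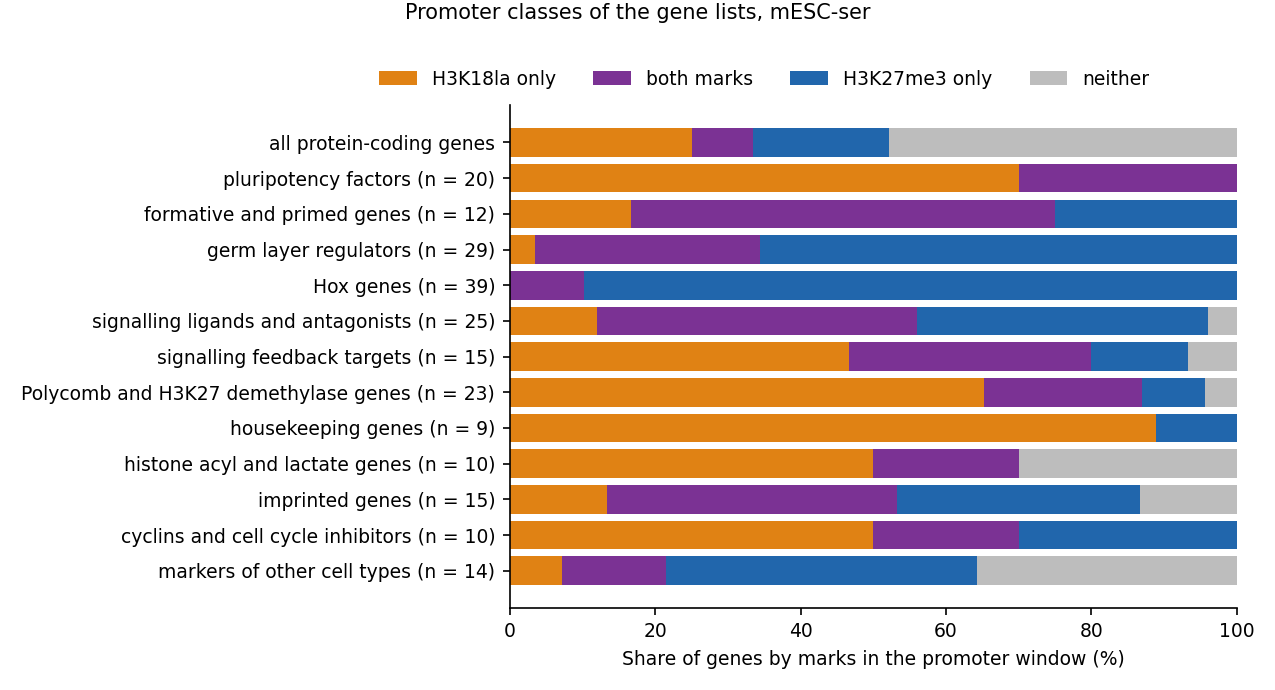
Share of genes (x axis, %) with H3K18la only, both marks, H3K27me3 only or neither mark in the promoter window in mESC-ser, for all 21755 protein-coding genes and 12 gene lists, with the number of genes in each. Pluripotency factors carried H3K18la without exception, Hox genes and germ layer regulators mostly carried H3K27me3 only, and formative and primed genes most often carried both marks.

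Pluripotency factors carried H3K18la at all 20 promoters, 14 without and 6 with H3K27me3, against 25.1% and 8.31% of all genes. For each gene the maxima given are those of the peak of each mark with the largest summed signal in its windows, which need not be the peaks that share bases. The core factors Pou5f1, Sox2 and Nanog lay under H3K18la peaks of 22900, 21159 and 18985 bp with no H3K27me3. The 6 with both marks were Klf4, Tbx3, Gbx2, Prdm14, Dppa3 and Esrrb. Klf4, a reprogramming factor, had an H3K18la maximum of 91 and an H3K27me3 maximum of 36 (percentile 37.97 of its list), with 1782 shared bases. Gbx2, a transcription factor of naive cells, had the reverse balance, with an H3K18la maximum of 67 (percentile 53.9) beside an H3K27me3 maximum of 302 (percentile 97.7) and 4711 shared bases. Prdm14, a germ cell and naive pluripotency factor, had 123 for H3K18la (percentile 86.0) and 113 for H3K27me3 (percentile 84.7). Dppa3, also called Stella, had 114 and 270, with 2526 shared bases. Esrrb had both peaks in its windows but no shared base. The 6 genes thus had H3K18la maxima above the middle of the list, at percentiles from 53.9 to 95.5.

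Of 12 formative and primed genes, which mark the exit from the naive state, 7 had both marks, 2 had H3K18la only and 3 had H3K27me3 only. All 12 had CGI promoters, and both marks were found at 8.31% of all genes and 12.2% of genes with a CGI promoter. Otx2, a driver of that exit, had 8910 shared bases, an H3K18la maximum of 50 (percentile 32.2) and an H3K27me3 maximum of 380 (percentile 98.7), where these maxima belong to peaks that do not overlap each other. Lef1, a WNT effector, stood high in both lists, with maxima of 159 (percentile 92.8) and 162 (percentile 90.9). The de novo methyltransferase Dnmt3b had 70 and 43 with 2294 shared bases, while Dnmt3a had both marks without a shared base in the window. The others with both marks were Zic2, Foxd3 and Etv4. Fgf5, Pou3f1 and Sox3 had H3K27me3 only, and Etv5 was among those with H3K18la only.

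Germ layer regulators and Hox genes were mostly covered by H3K27me3 alone. Of 29 germ layer regulators, 19 had H3K27me3 only, 9 had both marks and Tbx6 alone had H3K18la only, beside 18.7%, 8.31% and 25.1% of all genes, and 27 of the 29 had CGI promoters. Those with both marks included Gsc, Gata2, Foxa2, Hhex, Pax6, Msx2, Hand1 and Cdx2. In the 9 genes the median percentile was 96.7 for the H3K27me3 maximum and 3.20 for the H3K18la maximum. Gata2, a blood regulator, had an H3K18la maximum of 21 (percentile 0.273) over 5972 bp beside an H3K27me3 domain of 19788 bp with a maximum of 230. The endoderm factor Foxa2 had 22 beside 264, and Cdx2 had 30 beside 295. Pax6, an eye and neural regulator, and the mesoderm factor Hand1 had higher H3K18la maxima of 81 (percentile 66.4) and 74 (percentile 60.8), and the endoderm gene Hhex had a lower H3K27me3 maximum of 70 (percentile 72.1). Of 39 Hox genes, 35 had H3K27me3 only, and 4 had both marks, among them Hoxb1, Hoxb13 and Hoxc12. The 8 genes from Hoxb2 to Hoxb9 lay under a single H3K27me3 peak of 112819 bp. Hoxb1 had an H3K18la maximum of 45 (percentile 24.6) and an H3K27me3 maximum of 338 (percentile 98.2), with 2460 shared bases. Hoxb13 had H3K18la and H3K27me3 maxima of 47 and 578, and Hoxc12 of 38 and 199.

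Of 25 signalling ligands and antagonists, 11 had both marks, 10 H3K27me3 only, 3 H3K18la only and 1 (Cer1) neither, beside 8.31%, 18.7% and 25.1% of all genes in the first 3 classes. The NODAL inhibitors Lefty1 and Lefty2 had strong H3K18la (maxima 214 and 190) and 5154 and 2544 bases under both marks, whereas Nodal itself had H3K18la only. The BMP ligand genes Bmp4 and Bmp7 and the BMP antagonist gene Chrd had both marks, and Bmp2 and the antagonist genes Nog and Fst had H3K27me3 only. The Notch ligand genes Dll1 and Jag1 had both. Wnt3, Wnt3a, Wnt5a and Wnt11 had H3K27me3 only, and Wnt7b and Wnt8a had both. Of 15 feedback targets of these pathways, 7 had H3K18la only, 5 both marks (Id3, Smad6, Axin2, Dusp4 and Egr1), 2 H3K27me3 only and 1 (Spry1) neither. The difference between these lists was not tested. Id3 had an H3K18la maximum of 128 and an H3K27me3 maximum of 71, with the whole H3K27me3 peak of 2104 bp inside the H3K18la peak.

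Of 23 Polycomb and H3K27 demethylase genes, 15 had H3K18la only and 5 had both marks, beside 25.1% and 8.31% of all genes. The core Polycomb subunits Ezh2, Eed and Suz12 were among the 15. All 23 had CGI promoters, and 46.8% of all genes with a CGI promoter carried H3K18la. The 5 with both marks included the accessory gene Phf19, the chromobox gene Cbx8, the CpG-binding Kdm2b and the H3K27 demethylase Kdm6b. Cbx8 lay in an H3K27me3 peak of 35718 bp with a maximum of 588 (percentile 99.5), beside an H3K18la maximum of 52. Kdm6b had an H3K18la maximum of 205 (percentile 96.6) and an H3K27me3 maximum of 41 (percentile 46.5). Of 9 housekeeping genes, 8 had H3K18la only and none had both, and B2m, an antigen presentation gene, had H3K27me3 only (maximum 38, percentile 41.6). Of 10 histone acyl and lactate genes, 5 had H3K18la only, including the lactate dehydrogenase gene Ldha, and 2 had both, Ldhb and Hdac2. Of 10 cyclins and inhibitors, all with CGI promoters, Ccnd2 and Cdkn1a had both marks, 5 had H3K18la only and Cdkn2a, Cdkn2b and Cdkn2c had H3K27me3 only. Of 15 imprinted genes, 6 had both (Phlda2, Peg10, Mest, Dlk1, Grb10 and Gnas), 5 H3K27me3 only and 2 H3K18la only, and 14 of the 15 had CGI promoters. Of all genes 18.7% had H3K27me3 only, and of those with a CGI promoter 12.2% had both marks. For imprinted genes, marks on different alleles cannot be told apart from marks on the same allele.

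The promoters with the most shared bases came from several kinds of gene. The centrosome gene Sfi1 (chr11:3131850-3193463) led with 31026 bases under both marks over its alternative promoters. Its maxima were in the top 1% of all 4 mESC-ser lists, at percentiles 99.9 for H3K18la, 99.6 for H3K27me3, 99.97 for H3K4me3 and 99.7 for H3K27ac, and whether read mapping plays a part was not tested. These bases are summed over all promoters of a gene and may come from several peaks. Pax6 (chr2:105668900-105697364) followed with 14767 bases, and then Obsl1 with 11547, Mgat4b with 10805, the homeobox gene Meis2 with 10225 and Otx2 with 8910. The last 4 were the phosphatase gene Acp5, the GABA synthesis gene Gad1, Adamtsl5 and the TGF-beta binding gene Ltbp3, with 8520 to 8294 bases. H3K4me3 was called at all 10, and H3K27ac at Sfi1, Obsl1, Mgat4b, Acp5, Adamtsl5 and Ltbp3. The H3K18la-only promoters with the largest summed signal were Gm21887, Cdc6, Rara, Irf2bpl and Pitpnc1, where Cdc6 and Rara share a peak of 49949 bp, and Pitpnc1 lay in the widest H3K18la peak (68925 bp). The H3K27me3-only promoters with the largest signal were Hoxb2 to Hoxb9, which tie under the same 112819-bp peak, and of these Hoxb2 to Hoxb6 were taken.

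Away from promoters, 1058 of 2848 stretches were found (37.1%, 35.4 to 38.9%). They were shorter (median 1922 against 2445 bp) and less often under H3K4me3 (20.6%, 18.3 to 23.1%, against 69.6%, 67.4 to 71.7%) or H3K27ac (21.4% against 34.6%) than those at promoters. The longest distal stretch, chr6:47654713-47668710, was an H3K18la peak of 13998 bp nested in an H3K27me3 domain of 35929 bp, 59372 bp from the nearest protein-coding TSS, that of Ezh2. Its H3K27me3 maximum was 1028 and its H3K18la maximum 44. The second, chr19:37876619-37889281 (12663 bp), lay 12222 bp from Myof. The third, chr8:44972906-44982385 (9480 bp), was an H3K27me3 peak nested in H3K18la within the gene body of the cadherin gene Fat1, with maxima of 155 for H3K18la and 151 for H3K27me3. The other 2 lay 43917 bp from Dynlt1b (9210 bp) and 69153 bp from the stress gene Gadd45g (8958 bp).

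In 2i medium, which holds stem cells in a more uniform naive state, the classes of mESC-ser differed in what was called at the same regions. Of the regions with both marks, 27.3% (25.6 to 29.1%) met both marks in mESC-2i, 40.8% H3K18la only, 24.6% H3K27me3 only and 7.32% neither. With the 5000 strongest peaks of each list the first share was 14.8%. Of H3K18la-only regions 76.5% met H3K18la only, and of H3K27me3-only regions 51.1% met H3K27me3 only. H3K27me3 was called in mESC-2i at 3.31% of H3K18la-only regions (1.05% with and 2.26% without H3K18la). H3K18la was called there at 4.81% of H3K27me3-only regions (1.13% with and 3.68% without H3K27me3). Of the shared stretches themselves, 20.2% (18.7 to 21.7%) overlapped a shared stretch of mESC-2i. The mESC-2i lists were larger (128 Mb of H3K18la and 145 Mb of H3K27me3) yet shared fewer bases, 3.02 Mb against 7.24 Mb. Of the 1808 genes with both marks, 37.9% had both in mESC-2i, 37.2% H3K18la only, 22.0% H3K27me3 only and 2.99% neither. The 6 pluripotency factors with both marks had H3K18la only in mESC-2i, except Esrrb, which kept both. Of the 7 formative and primed genes with both marks, 5 had H3K18la only and Otx2 and Etv4 had both. Of the 9 germ layer regulators, 5 had both, 2 H3K18la only (Hhex and Msx2) and 2 H3K27me3 only (Foxa2 and Hand1).

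**Figure D5:**
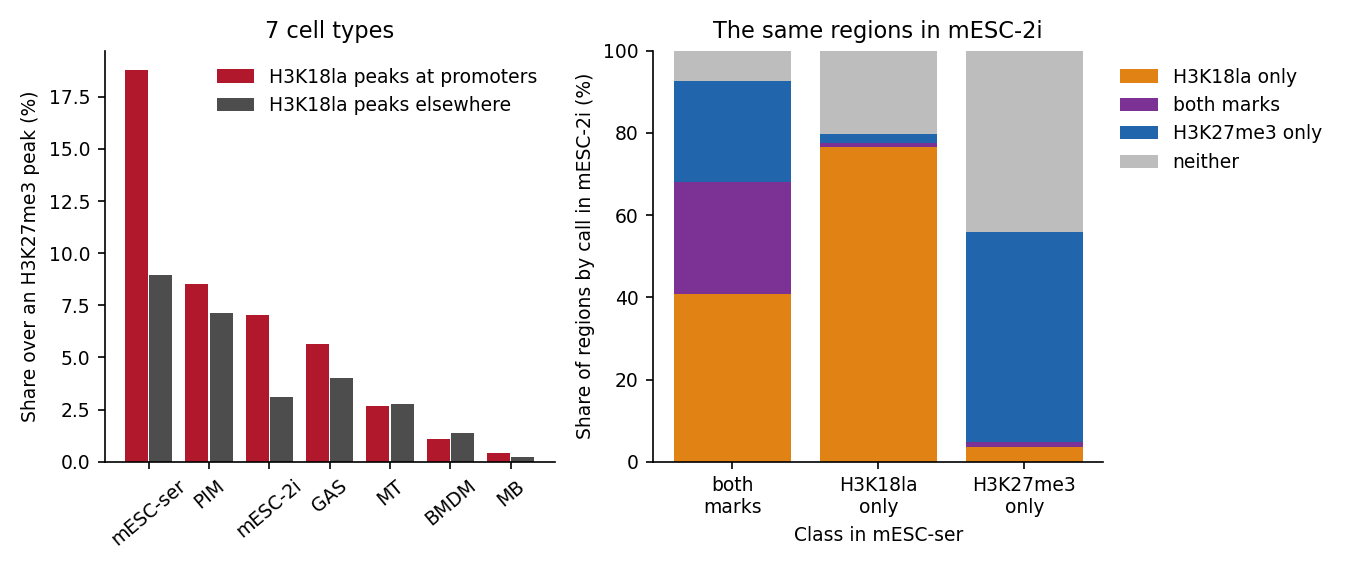
Left, share of H3K18la peaks over an H3K27me3 peak (y axis, %) at promoters and elsewhere in 7 cell types, from 18.8% and 8.97% in mESC-ser to 0.404% and 0.234% in MB. Right, share of mESC-ser regions of each class (y axis, %) that met H3K18la only, both marks, H3K27me3 only or neither in mESC-2i.

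Among the 7 cell types with both marks, of which MB and BMDM had 1 sample per mark, mESC-ser had the largest share of H3K18la peaks over H3K27me3 but not of H3K27me3 peaks over H3K18la. The latter was 12.4% in PIM (11.9 to 13.0%) and 10.99% in mESC-ser (10.6 to 11.4%). The shares of H3K18la peaks were 13.8% in mESC-ser, 7.67% in PIM, 5.09% in mESC-2i, 4.61% in GAS, 2.74% in MT, 1.28% in BMDM and 0.280% in MB. The shared bases were 2.67 times an even spread in mESC-ser and 1.51 times in PIM, and in the other 5 cell types the ratio lay between 0.0499 (MB) and 0.476 (GAS). H3K18la peaks at promoters met H3K27me3 more often than those elsewhere by 9.80 points in mESC-ser. Over the 7 cell types this difference was 2.36 ± 3.59 points (SD, n = 7), was above 0 in 5 of 7 and was not past the threshold (exact two-sided sign-flip permutation test p = 0.0938, BH-adjusted p = 0.281 over 3 tests). Its mean was 1.12 points without mESC-ser and 0.772 points with the 5000 strongest peaks of each list. The log2 ratio of median H3K18la width with over without H3K27me3 was −0.03 ± 0.20 (SD, n = 7; exact permutation p = 0.828, adjusted p = 0.828). The log2 ratio of the median maximum was −0.27 in mESC-ser, −0.06 ± 0.35 over the 7 cell types and below 0 in 6 of 7 (SD, n = 7; exact permutation p = 0.672, adjusted p = 0.828). The smallest p that this test allows with 7 cell types is 0.0156. Without MB, where only 38 H3K18la peaks met H3K27me3, the mean log2 ratio of the maximum was −0.18 (exact permutation p = 0.0313, the smallest that 6 cell types allow, not adjusted). Without mESC-2i it was 0.00489 (exact permutation p = 1), and with the 5000 strongest peaks of each list it was 0.49 (exact permutation p = 0.234), so its direction was not stable.

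H3K27me3 of other cell types met the mESC-ser H3K18la peaks as well. The share of mESC-ser H3K18la peaks over H3K27me3 was 19.98% for the PIM list, 17.3% for GAS, 15.4% for BMDM, 12.5% for MT, 9.47% for mESC-2i and 7.34% for MB, beside 13.8% for the list of mESC-ser itself. Relative to an even spread, the shared bases were 4.05 times for PIM, 3.42 for BMDM, 2.67 for mESC-ser, 2.25 for MB, 2.05 for GAS, 1.39 for MT and 1.14 for mESC-2i. In the other direction, 16.4% of mESC-ser H3K27me3 peaks met H3K18la of GAS, 14.4% of MT, 11.7% of mESC-2i and 11.2% of PIM. For MB and BMDM these shares were 5.42% and 4.89%, beside 10.99% for mESC-ser itself. The ratios lay between 1.99 (MT) and 2.52 (GAS), beside 2.67 for mESC-ser. Regions with both marks in mESC-ser met H3K27me3 without H3K18la in 1157 of 2471 cases (46.8%) in BMDM and, by number, equally in PIM, and met H3K18la without H3K27me3 in 13.0% and 16.5%. The lists differed in size, which was not adjusted for. BMDM had 22.6 Mb of H3K18la and 98.7 Mb of H3K27me3, and PIM had 68.9 and 102.6 Mb. Of H3K27me3-only regions, which are narrower, 25.6% in BMDM, 27.9% in PIM, 38.7% in GAS and 29.1% in MT met H3K27me3 only. In GAS, 36.3% of the regions with both marks met H3K27me3 only, 30.1% H3K18la only and 13.9% both. In MT these were 28.0%, 30.6% and 6.03%. In MB they were 27.3%, 15.6% and 1.38%, and 55.8% of the regions met neither mark. The stem cells entered the assay whole and these cell types as nuclei, so the preparation and the cell type cannot be told apart.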

How the data were processed

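CUT&Tag peaks of H3K18la and H3K27me3 in mESC-ser were analysed, with lists of H3K4me3, H3K27ac and other cell types beside them (18 of 24 deposited lists were read). The authors trimmed reads (Trim Galore 0.6.6), aligned them to mm10 (Bowtie2 2.4.4), computed fragment coverage with bedtools 2.30, combined replicates and called peaks with SEACR 1.3 in stringent mode without a control (versions from the submitters' processing notes). The deposited columns hold fragment coverage not scaled for depth, as the highest signal within each peak and as the sum over its bases. Whether duplicates were removed is not given in the sources used here, and blacklisted regions were not removed here. The H3K27me3 list whose file name gives no medium is assigned to serum by its sample description.

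Only chromosomes 1 to 19 and X were kept, which left out 8 H3K18la and 14 H3K27me3 peaks. Peak ends were checked to lie within the GRCm38 chromosomes. An overlap of 1 bp counted. Pairs of peaks with a shared stretch were joined into regions. Promoters were 2000 bp to each side of the TSS of 139486 GENCODE vM21 transcripts, and genes were the 21755 protein-coding ones. CGIs (16218) were called on soft-masked sequence at a minimum of 200 bp, 50% GC and 0.6 of observed to expected CpGs. The even-spread ratio was shared bases times compartment length over the product of the bases of both sets. A percentile is the rank of a peak's maximum within its own list, and the maximum's position is the midpoint of the stretch at that height. The peak with the largest summed signal in a gene's windows represented the gene. Intervals were Wilson's, and differences of shares joined 2 such intervals. With 1 pooled list per mark no test within mESC-ser was possible, and the exact sign-flip test over 7 cell types, adjusted by Benjamini-Hochberg (BH), was the only test of a comparison. Dixon's criterion marked cell types far from the others.

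Named genes were the members of 12 lists, the 10 promoters with the most shared bases, the 5 H3K18la-only and 5 H3K27me3-only promoters with the largest summed signal and the 5 longest distal stretches. The printed promoters and further members given as examples were chosen after their values were seen. Some list members are counted but not reported here by name. The regions, lists and comparisons were chosen with earlier results of these data known. Functions were checked on simulated peaks and with bedtools 2.31.1. Python 3.11.15, pandas 2.3.3 and scipy 1.17.1 were used.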

Additional observations from a re-analysis of the deposited data

Results flagged for a closer look

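In 3 of the 6 quantities compared over the 7 cell types, 1 cell type lay far from the others by Dixon's criterion, which flags about 1 in 20 groups without cause. The difference between promoters and other places in the share of H3K18la peaks over H3K27me3 was 9.80 points in mESC-ser, and mESC-2i came next with 3.94 points. In MB the log2 ratio of median H3K18la width with over without H3K27me3 was −0.43, and the log2 ratio of the median maximum was 0.68. The 2 MB values rest on 38 H3K18la peaks with H3K27me3, and MB has 1 sample for each mark.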

How the results depend on the processing

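No paired analysis was possible because replicates were pooled before peak calling, and for the same reason no replicate could be left out. Read depth was not taken into account here: the peak lists carry no read numbers, and those that the authors report per sample were not used. Intervals cover counting error only. Requiring 200 bp moved the median stretch to 2239 bp, and the other shares stayed within their intervals. Requiring 50% of the shorter peak gave 12.6% of H3K18la and 9.86% of H3K27me3 peaks. With the larger set reduced to the bases of the smaller, 11.9% of H3K27me3 peaks overlapped, and the even-spread ratio was 2.75 in the genome and 0.685 at CGI promoters. Promoters of 1000 bp gave promoter differences of 27.3 points (both marks minus H3K18la only) and 39.9 points (minus H3K27me3 only), and TSSs of protein-coding transcripts gave 27.4 points for the first.

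With the 5000 strongest peaks per set, 6.12% of H3K18la and 6.22% of H3K27me3 peaks overlapped, with ratios of 2.21 and 0.395, a median stretch of 4504 bp, and 26.9%, 16.6% and 56.6% of pairs as nested H3K18la, nested H3K27me3 and crossing. The differences of both marks minus H3K18la only and minus H3K27me3 only were then 18.99 and 3.63 points for promoters, 25.9 and 39.8 for H3K4me3 and −13.6 and 64.1 for H3K27ac. Genes with both marks numbered 322 (1808 with all peaks) and with H3K18la only 2351, the shares called again in mESC-2i were 14.8% (both), 69.5% (H3K18la) and 49.5% (H3K27me3), and the mean log2 ratio of the maximum over cell types turned to 0.49 (exact permutation p = 0.234). These smaller counts follow from fewer peaks.

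Leaving out each cell type gave a mean log2 ratio of width from −0.0574 to 0.0423, of the maximum from −0.18 to 0.00489, and a promoter difference from 1.12 points (without mESC-ser) to 2.81. The width ratio turned sign without MB and the maximum ratio without mESC-2i. Chosen after seeing the data, leaving out chromosomes 8 and 11 gave 12.8% and 10.3%, and leaving out maxima above 1000 gave ratios of 2.64 and 0.689. Taking the maximum of each peak gave 19.4 and 26.9 points for promoters, 23.9 and 40.5 for H3K4me3 and 20.3 for H3K27ac against H3K27me3 only. The cause of these moves was not tested. Of 85 recomputed values, 44 stayed the same by the rule for their kind. Shares had to stay within the interval, gene counts within a fixed factor, and tested means on the same side of 0 and of the threshold. Even-spread ratios and the median stretch had no interval, so any change in them counted as a move.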
